A study of Mus musculus with 6 samples.

Results

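The Klhl, Kbtbd, Kctd and Btbd genes encode proteins with a BTB domain, a protein-binding fold. The genes described here were chosen by name, as every gene called Klhl, Kbtbd, Kctd or Btbd with a number and at most 1 further letter, and were selected on having at least 10 counts in at least 3 of the 6 libraries. Of 81 such genes listed, 56 met the rule: 23 of 37 Klhl genes, 6 of 9 Kbtbd genes, 17 of 22 Kctd genes and 10 of 13 Btbd genes. They were among 13001 genes of 36706 listed that passed the same count rule. The study sequenced RNA, with a stranded mRNA kit, from macrophages grown from bone marrow cells of wild-type mice in 20 ng/mL of the growth factor M-CSF. One group of 3 libraries came from cells treated for 3 h with IFN-γ (interferon-gamma), the T and NK cell cytokine that primes macrophages, and the other group of 3 from cells left untreated, also labelled 3 h. Both groups carried the same wild-type genotype and M-CSF, and the stated aim concerned how ACOD1, the itaconate-making enzyme, is induced by IFN-γ. The labels do not say whether the replicates came from separate mice or wells, so each p-value reflects only the spread among the libraries, which may be technical.

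Many, but not all, BTB proteins of these families act as substrate adaptors of ubiquitin ligases built on the scaffold protein cullin 3 (CUL3). In such adaptors, the BTB domain holds CUL3, which carries the RING protein RBX1. A further domain of the adaptor, such as the Kelch repeats of KLHL and KBTBD proteins, holds the substrate. Several KCTD proteins have other roles, such as the auxiliary subunits of the GABA-B receptor.

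IFN-γ libraries held 34233607, 32628170 and 33106160 counts, and untreated libraries 28133342, 28709235 and 31173432. All 8 macrophage markers checked lay above 1 CPM (counts scaled to a common library size with TMM factors) and summed to between 20780 and 22090 CPM with IFN-γ and between 19580 and 21160 CPM untreated. T cell markers summed to 2.61 to 3.60 CPM with IFN-γ and 2.17 to 2.49 CPM untreated, with 4 of 6 under 1 CPM. Cd4 and Lck carried these sums, and Lck averaged 1.19 CPM with IFN-γ and 0.278 CPM untreated. B cell markers summed to 3.42 to 3.54 CPM with IFN-γ and 3.88 to 4.97 CPM untreated, carried by Cd79b. All 5 NK cell, 5 erythroid, 4 mast cell or basophil and 5 stromal markers were under 1 CPM in every library. Neutrophil markers summed to 117.8 to 131.2 CPM with IFN-γ and 69.7 to 92.5 CPM untreated, carried by S100a8 and S100a9, while 4 of 7, Ly6g among them, were under 1 CPM. Dendritic cell markers summed to 5.37 to 5.96 CPM with IFN-γ and 1.72 to 2.16 CPM untreated, with 3 of 5 under 1 CPM. Xcr1 was the highest of them with IFN-γ, at a mean of 3.02 CPM against 0.587 CPM untreated. Xcr1 and Clec9a were called higher and the other dendritic cell markers were not called. The part of these markers in the results below was not tested. In bulk RNA, fewer cells of a type and less RNA per cell cannot be told apart.

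Promoters are shown for a pair of genes that were higher with IFN-γ and for 1 that was lower. Each is the 250 bases before the RefSeq start of the gene on build GRCm38.p6, written 5′ to 3′ on the gene's own strand. Capitals mark a match to a motif searched on both strands, an interferon-stimulated response core of GAAA, any 2 bases, GAAA. Kctd12 lies at chr14:102982638-102982887, minus strand, and Kctd10 at chr5:114380506-114380755, minus strand. Btbd2 lies at chr10:80656495-80656744, minus strand.
Kctd12: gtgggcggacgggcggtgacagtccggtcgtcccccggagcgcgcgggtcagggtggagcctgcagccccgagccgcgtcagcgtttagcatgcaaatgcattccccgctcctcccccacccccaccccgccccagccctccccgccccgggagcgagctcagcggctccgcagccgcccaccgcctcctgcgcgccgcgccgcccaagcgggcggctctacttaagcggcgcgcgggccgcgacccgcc
Kctd10: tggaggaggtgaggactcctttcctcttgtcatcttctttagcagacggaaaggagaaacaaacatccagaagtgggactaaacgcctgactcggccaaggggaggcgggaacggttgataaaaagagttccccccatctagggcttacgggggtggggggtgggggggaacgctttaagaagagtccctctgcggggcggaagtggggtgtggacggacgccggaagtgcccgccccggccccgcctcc
Btbd2: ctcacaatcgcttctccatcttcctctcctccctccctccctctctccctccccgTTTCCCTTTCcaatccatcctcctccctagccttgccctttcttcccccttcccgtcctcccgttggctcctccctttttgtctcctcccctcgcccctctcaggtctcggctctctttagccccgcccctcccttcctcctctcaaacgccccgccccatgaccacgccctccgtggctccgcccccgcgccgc
The motif was not found in the promoter windows of Kctd12 and Kctd10. The Btbd2 window held the response core on the opposite strand, 195 bases before the start.

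RefSeq gave a promoter for 45 of the 56 genes. The response core occurred in 4 of the 45, namely Btbd2, Kbtbd4, Kctd6 and Klhl22, and, counted in the same way, in 3.46% of 27025 mouse genes with a promoter. Per promoter of this length, the share was 2.98% of 32851. By call, it was present in 0 of 4 genes higher with IFN-γ, in 1 of 18 lower (Btbd2) and in 3 of 23 not called. These are matches of letters in a window and say nothing of binding.

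**Figure D1:**
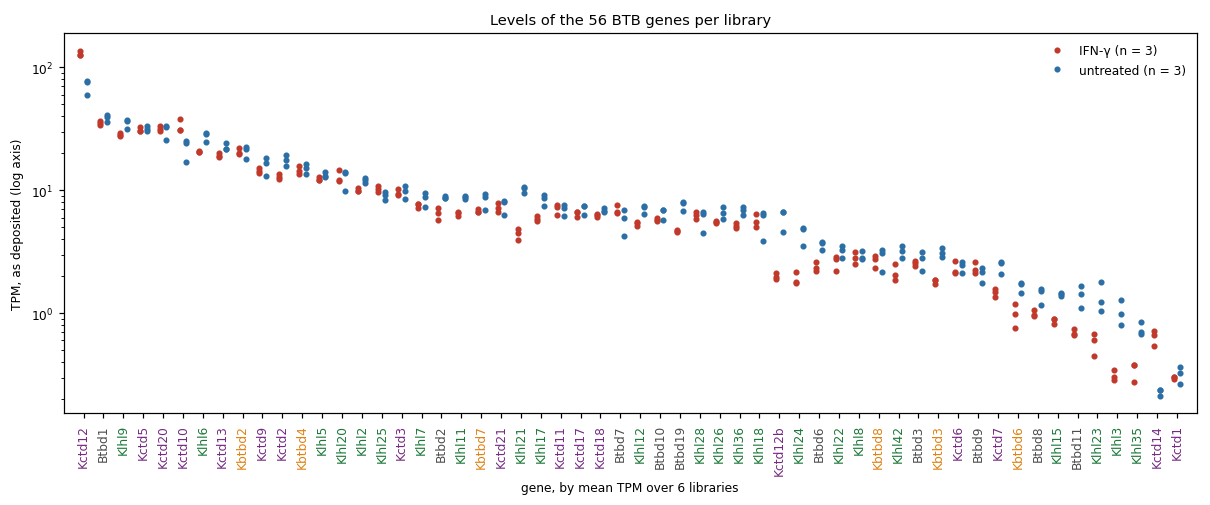
TPM as deposited, on a log axis, for each of the 56 genes in each library, in order of mean TPM; red points are the 3 IFN-γ libraries and blue points the 3 untreated ones. Kctd12 sits above all others in every library, at 125 to 136 TPM with IFN-γ and 59.7 to 76.9 TPM untreated, and 36 genes have a mean between 1 and 10 TPM.

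Levels between genes were compared in TPM, which is scaled for exon length. Kctd12 was the most abundant of the 56 in every library, at 136.4, 126.6 and 125.4 TPM with IFN-γ and 76.9, 59.7 and 75.5 TPM untreated. It made up 22.2%, 21.8% and 22.0% of the summed TPM of the 56 genes in the IFN-γ libraries, against 12.4%, 11.5% and 12.2% in the untreated ones. KCTD12 is an auxiliary subunit of GABA-B receptors in neurons, together with KCTD8 and KCTD16, and Kctd8 and Kctd16 had at most 1 count in a library. Next in order were Btbd1 (mean 36.9 TPM over 6 libraries, range 33.9 to 40.7), Klhl9 (31.9, range 27.7 to 37.4), Kctd5 (31.3, range 30.1 to 33.2), Kctd20 (31.2, range 25.8 to 33.4) and Kctd10 (27.7, range 17.1 to 37.9). The range of each of these 5 overlapped that of the next, so their order was not separated, while Kctd12 overlapped none of them. In all, 15 genes had a mean of at least 10 TPM, 36 lay between 1 and 10 TPM and 5 under 1 TPM. The median was 6.25 TPM, against 10.9 TPM for all genes tested.

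The 25 genes outside the count rule included 7 with 0 counts in every library: Klhl30, Klhl31, Klhl1, Klhl4, Klhl14, Klhl13 and Klhl38. Klhl31 is known from muscle and Klhl1 from neurons. Just inside the rule lay Kctd14, which reached 10 counts in 5 libraries. Just outside lay Kbtbd11, with 6, 4 and 12 counts with IFN-γ and 4, 3 and 5 untreated, which reached 10 counts in 1 library. Every gene had at least 1 library of each group at 10 counts, and all 56 were tested. Kctd14 had 3 such IFN-γ libraries and 2 untreated ones, so only its IFN-γ group met the rule by itself.

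With IFN-γ, 22 of the 56 genes were lower and 6 were higher, while 28 did not pass the test (quasi-likelihood test of edgeR on 12968 genes, with a threshold of 0.05 on p adjusted by Benjamini and Hochberg's method). The lower genes were 39.3% of the 56, against 16.8% of all genes tested. The higher genes were 10.7%, against 19.6% of all genes tested. At least 2-fold lower were 5 genes, Klhl3, Kctd12b, Klhl23, Klhl21 and Klhl24, where 1.94% of all genes were. The only gene at least 2-fold higher was Kctd14, where 6.17% of all genes were, and Kctd12 lay just under that line. For 35 genes (62.5%) the CPM ranges of the groups were apart, 10 of them higher and 25 lower with IFN-γ, against 50.1% of all genes tested. The median log2 fold change was -0.08 over the 56 genes and -0.01 over all genes. Median exon length was 4576 bases, against 3674 over all genes tested.

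The balance of calls depended on the scaling of the libraries. Total-count and upper-quartile scaling put the median of all genes at -0.18 and -0.16 on the log2 scale, and that of the 56 genes at -0.25 and -0.23. The share of calls on the higher side was then 26.9% and 30.6% over all genes, against 53.8% with TMM. Over the 56 genes, 3 were higher and 30 lower with total counts, and 3 higher and 29 lower with the upper quartile. Of all 12968 genes, 1666 were higher and 4520 lower with total counts, and 1803 higher and 4097 lower with the upper quartile. Kctd14, Kctd12 and Kctd10 were higher under every scaling, while Btbd7, Klhl25 and Btbd9 lost their call under these 2.

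**Figure D2:**
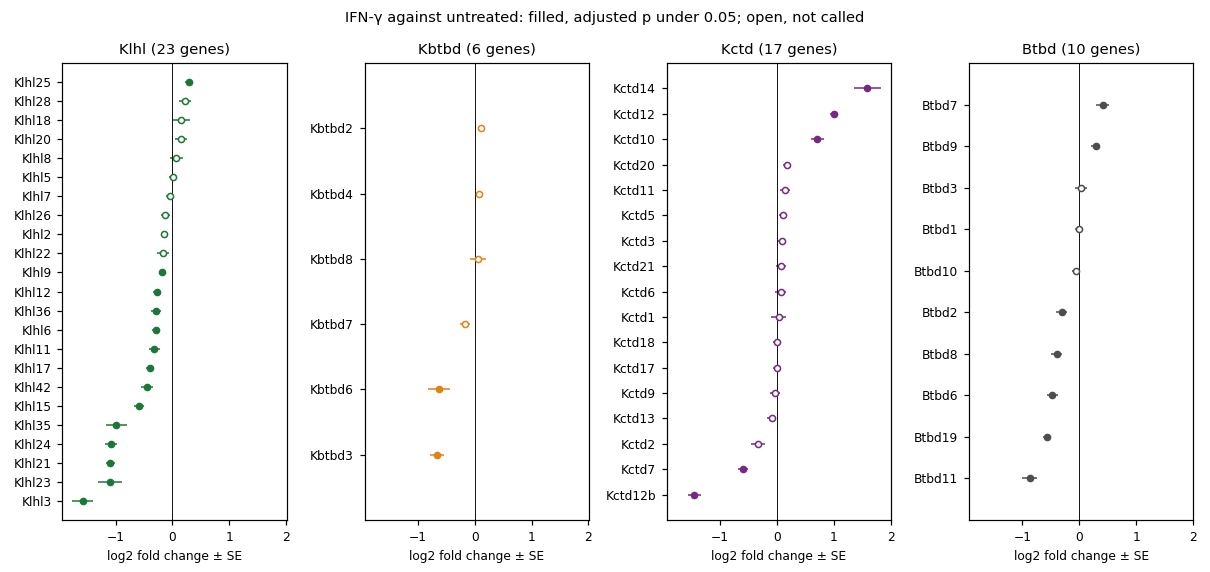
Log2 fold change of each of the 56 genes, IFN-γ over untreated, with its standard error from edgeR's fit, by family; filled points passed an adjusted p of 0.05. In the Klhl panel 13 filled points lie below 0 and 1 above, and the Kctd panel holds both the highest (Kctd14) and the second lowest (Kctd12b) value of the 56.

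The called genes were spread over the 4 families. Of 23 Klhl genes, 13 were lower (56.5%, against 16.8% of all genes tested) and 1 higher (4.35%, against 19.6%) with IFN-γ. Their median log2 fold change was -0.28, or -0.45 with total counts, which left 16 lower and 0 higher. Over all 12968 genes, total counts gave 4520 lower and 1666 higher. The shares of 16.8% and 19.6% come from TMM scaling. Of 10 Btbd genes, 5 were lower (50%) and 2 higher (20%), with a median of -0.19, while total counts gave 7 lower, 0 higher and a median of -0.36. Of 6 Kbtbd genes, 2 were lower (33.3%) and 0 higher, with a median of -0.06, while total counts gave 3 lower and a median of -0.23. Of 17 Kctd genes, 3 were higher (17.6%, against 19.6% of all genes) and 2 lower (11.8%, against 16.8%), with a median of 0.06 that turned to -0.11 with total counts and -0.08 with the upper quartile. These differences between families were not tested.

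**Figure D3:**
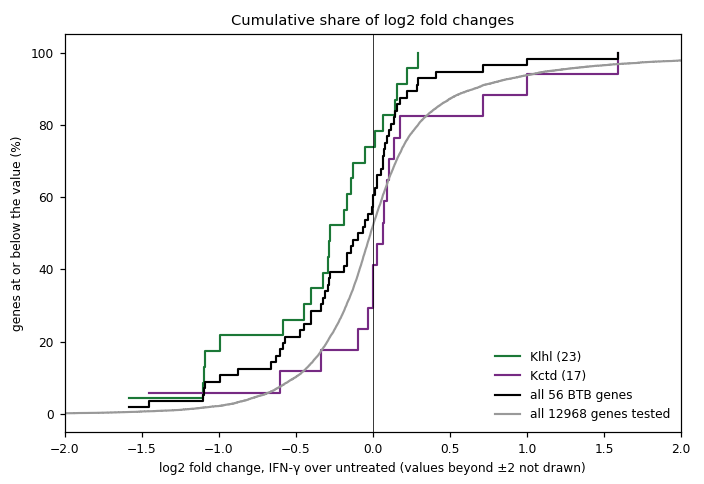
Share of genes (%) at or below each log2 fold change, IFN-γ over untreated, for the Klhl genes, the Kctd genes, all 56 genes and all 12968 genes tested. At 0, the curve of the Klhl genes has passed 17 of 23 genes and that of the Kctd genes 7 of 17.

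Kctd12 and its mouse relative Kctd12b moved in opposite directions. Kctd12 had 396.8, 388.6 and 388.5 CPM with IFN-γ and 205.7, 181.3 and 200.8 CPM untreated. Every IFN-γ library lay above every untreated one, and the spread between IFN-γ libraries was small. This gave a log2 fold change of 1.00 ± 0.06 (SE), a 1.997-fold difference (adjusted p = 7.66e-06, edgeR). The tables place Kctd12 on chromosome 14, minus strand, 103214017 to 103220073, with 6057 bases of exon. These coordinates are the tables' own, with the build unnamed, since they do not match the mm10 build given in the submitters' processing notes. In GENCODE M21, a noncoding gene, Gm26778, lies on the opposite strand within Kctd12 and shares 61.3% of its 50-base stretches. The tables do not list Gm26778, and without stated strand use its reads and those of Kctd12 cannot be told apart.

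Kctd12b, on chromosome X, minus strand, 152468150 to 152479382, had 4.99, 4.88 and 4.77 CPM with IFN-γ and 14.5, 11.3 and 14.3 CPM untreated. The groups did not overlap. Its log2 fold change was -1.45 ± 0.11 (adjusted p = 2.47e-05, edgeR), or 2.74-fold lower. Of its 50-base stretches, 0.286% occurred in another gene. The genes of the receptor itself were near the limit of detection: Gabbr1 averaged 0.300 CPM with IFN-γ and 0.226 CPM untreated, and Gabbr2 averaged 0.275 CPM with IFN-γ and 0.419 CPM untreated. Neither was called.

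Kctd10, Kctd13 and Tnfaip1 encode 3 related adaptors of CUL3. Kctd10 had 56.4, 48.8 and 48.6 CPM with IFN-γ and 34.6, 26.5 and 32.7 CPM untreated. All 3 IFN-γ libraries were above all untreated ones, and the log2 fold change was 0.71 ± 0.11 (adjusted p = 0.00127, edgeR). Kctd13 averaged 15.9 ± 0.0304 CPM with IFN-γ and 17.03 ± 1.11 CPM untreated (SD, n = 3 each), and was not called (log2 fold change -0.10 ± 0.07, adjusted p = 0.347, edgeR). Tnfaip1, which has the same domain but another name, was not called either, at 0.13 ± 0.06 (adjusted p = 0.118, edgeR), with a value of -0.04 under total counts and -0.01 under the upper quartile. It was called higher once each library was corrected for its trend on exon length. The tables place Kctd10 on chromosome 5, minus strand, 114501633 to 114518566. Exons of Myo1h on the other strand cover 32.4% of its 3098 exon bases, with a mean of 2.17 counts for Myo1h against 1294 for Kctd10.

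Kctd14, on chromosome 7, had the largest log2 fold change of the 56 genes and very low counts. Only its IFN-γ libraries, the group where it was higher, met the count rule by themselves. Its counts were 32, 24 and 30 with IFN-γ and 8, 10 and 10 untreated, or 0.986, 0.782 and 0.966 CPM with IFN-γ and 0.266, 0.338 and 0.297 CPM untreated. The groups did not overlap. The log2 fold change was 1.59 ± 0.24 (adjusted p = 0.00115, edgeR), or 3.01-fold. Kctd21, 86164 bases away in the tables, was not called (0.07 ± 0.08).

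Among the other Kctd genes, Kctd7, which is mutated in a human progressive myoclonic epilepsy, was lower. It had 6.87, 7.95 and 8.47 CPM with IFN-γ and 11.97, 11.06 and 12.22 CPM untreated, a log2 fold change of -0.60 ± 0.10 (adjusted p = 0.00173, edgeR). The remaining 12 Kctd genes were not called, at values between -0.33 (Kctd2) and 0.18 (Kctd20). Kctd5, whose product acts with CUL3 on G protein βγ subunits in human cells, averaged 38.2 CPM with IFN-γ and 35.6 CPM untreated. Its log2 fold change was 0.10 ± 0.06 (adjusted p = 0.228, edgeR), and -0.07 with total counts. Gnb1, which encodes a G protein β subunit, was higher by 0.24 ± 0.06 (adjusted p = 0.0102, edgeR).

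**Figure D4:**
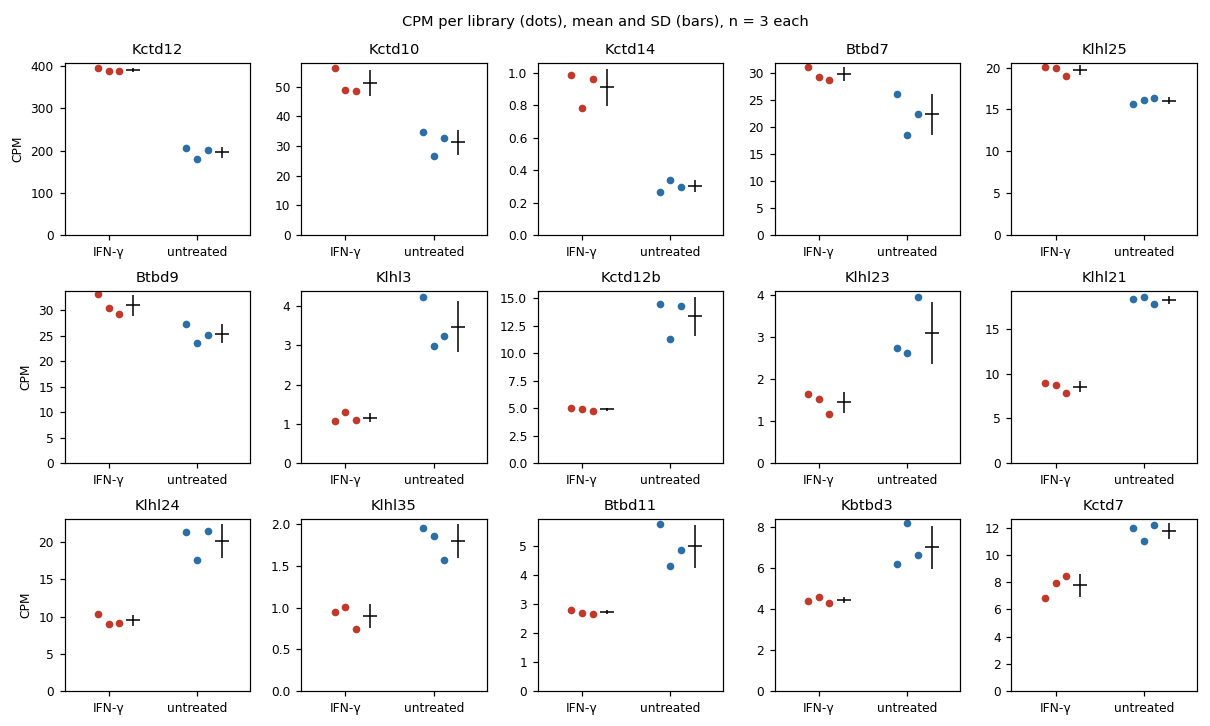
CPM in each library for 15 of the called genes, with IFN-γ libraries in red at the left of each panel and untreated libraries in blue at the right; bars give the mean and SD (n = 3 each), and every axis starts at 0. In each panel the points of the groups do not overlap, and the panels run from Kctd12 at 181 to 397 CPM to Kctd14 at 0.266 to 0.986 CPM.

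Klhl3 had the largest decrease. KLHL3 is a CUL3 adaptor for the WNK kinases, which set salt transport in the kidney. Klhl3 had 1.08, 1.30 and 1.10 CPM with IFN-γ and 4.22, 2.98 and 3.23 CPM untreated, from 35, 40 and 34 counts with IFN-γ and 127, 88 and 109 counts untreated. The highest IFN-γ library was well under the lowest untreated one. The log2 fold change was -1.58 ± 0.18 (adjusted p = 0.000246, edgeR), or 3.00-fold lower. Its closest relative by function, Klhl2, also a WNK adaptor, was not called, at 29.2 ± 1.54 CPM with IFN-γ and 32.2 ± 1.34 CPM untreated (log2 fold change -0.14 ± 0.07, adjusted p = 0.136, edgeR). Wnk1 was not called, and Wnk4 was too low to test. The tables place Klhl3 on chromosome 13, minus strand, 58148040 to 58271288, with 7408 exon bases.

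Klhl21 encodes an adaptor that, in human cells, acts on the mitotic kinase Aurora B. It had 8.995, 8.792 and 7.86 CPM with IFN-γ and 18.4, 18.7 and 17.8 CPM untreated. The replicates were tight within each group, and the log2 fold change was -1.10 ± 0.08 (adjusted p = 1.48e-05, edgeR). Klhl9, which in human cells acts on Aurora B with KLHL13, was more abundant, at a mean of 31.9 TPM against 7.31 TPM for Klhl21. Klhl9 averaged 60.0 ± 0.558 CPM with IFN-γ and 68.2 ± 1.26 CPM untreated, a log2 fold change of -0.18 ± 0.05 (adjusted p = 0.0221, edgeR). That call was lost without any of the IFN-γ libraries or without untreated replicate 1 or 3, with an adjusted p of up to 0.0874 by edgeR, while the value stayed between -0.20 and -0.18. Aurkb, the gene of Aurora B, was not called. Klhl21 lies on chromosome 4, plus strand, 152093348 to 152102134, and shares 19.5% of its 50-base stretches with the predicted gene Gm9768. Klhl9 shares 14.8% of its own stretches with Gm26566.

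Klhl24, which governs keratin turnover in human skin, had 10.4, 9.02 and 9.08 CPM with IFN-γ and 21.4, 17.6 and 21.5 CPM untreated. The log2 fold change was -1.09 ± 0.10 (adjusted p = 9.12e-05, edgeR). Its neighbour Klhl6, 114454 bases away on chromosome 16, is known from B cells of the germinal centre. Klhl6 was lower by a smaller amount, at 27.4 ± 1.16 CPM with IFN-γ and 33.6 ± 0.696 CPM untreated (log2 fold change -0.29 ± 0.06, adjusted p = 0.00653, edgeR).

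Klhl15 encodes an adaptor for a regulatory subunit of the phosphatase PP2A, the product of Ppp2r5b. It had 5.48, 5.21 and 5.77 CPM with IFN-γ and 7.91, 8.73 and 8.07 CPM untreated, a log2 fold change of -0.58 ± 0.09 (adjusted p = 0.00101, edgeR). Ppp2r5b was higher, at 29.1 ± 1.45 CPM with IFN-γ and 16.6 ± 0.126 CPM untreated (0.81 ± 0.07, adjusted p = 3.33e-05, edgeR). For this pair, adaptor and substrate transcripts were called in opposite directions, and a link between them was not tested.

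Klhl23 and Klhl35 were lower at low levels. Klhl23 had 1.63, 1.53 and 1.16 CPM with IFN-γ and 2.73, 2.61 and 3.94 CPM untreated (log2 fold change -1.10 ± 0.21, adjusted p = 0.00431, edgeR). Klhl35 had 0.955, 1.01 and 0.741 CPM with IFN-γ and 1.96, 1.86 and 1.57 CPM untreated (-0.99 ± 0.18, adjusted p = 0.00364, edgeR). Neither gene's groups overlapped.

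Klhl25, an adaptor for the translation inhibitor 4E-BP1 in human cells, was the only Klhl gene called higher. It had 20.1, 20.0 and 19.0 CPM with IFN-γ and 15.6, 16.2 and 16.4 CPM untreated. The groups were apart but close, with a log2 fold change of 0.29 ± 0.07 (adjusted p = 0.00894, edgeR), which fell to 0.12 with total counts and 0.15 with the upper quartile and was then not called. Eif4ebp1, the gene of 4E-BP1, was not called.

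The 2 Kbtbd genes called were both lower. Kbtbd3 had 4.37, 4.59 and 4.32 CPM with IFN-γ and 6.18, 8.19 and 6.64 CPM untreated (log2 fold change -0.66 ± 0.12, adjusted p = 0.00338, edgeR). Kbtbd6 had 1.08, 1.79 and 1.51 CPM with IFN-γ and 2.26, 2.20 and 2.31 CPM untreated (-0.63 ± 0.19, adjusted p = 0.0302, edgeR). KBTBD6 and KBTBD7 act together on the Rac activator TIAM1 in human cells, and their mouse genes lie 20796 bases apart on chromosome 14. Kbtbd7 was more abundant per length, at a mean of 7.58 TPM against 1.31 TPM for Kbtbd6, and was not called, at 15.4 ± 0.815 CPM with IFN-γ and 17.3 ± 1.54 CPM untreated (-0.17 ± 0.09). Of the 50-base stretches of Kbtbd6, 24.7% also occurred in Kbtbd7, with a mean of 58 counts for Kbtbd6 and 511.7 for Kbtbd7, so the Kbtbd6 count is uncertain. The Kbtbd6 call was also lost without IFN-γ replicate 1 or 3 or untreated replicate 1 or 3, at values between -0.66 and -0.46. Tiam1 was not called.

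Kbtbd2, which targets a regulatory subunit of PI3-kinase, averaged 46.3 ± 1.43 CPM with IFN-γ and 42.7 ± 2.05 CPM untreated and was not called (0.12 ± 0.06, adjusted p = 0.174, edgeR). Kbtbd4 shares 51.2% of its stretches with other genes, mostly Ptpmt1, and was not called.

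Among the Btbd genes, Btbd11 and Btbd19 had the largest decreases. Btbd11 had 2.803, 2.703 and 2.674 CPM with IFN-γ and 5.78, 4.33 and 4.89 CPM untreated (log2 fold change -0.87 ± 0.13, adjusted p = 0.00107, edgeR). Btbd19 had 9.52, 9.77 and 9.92 CPM with IFN-γ and 14.4, 14.2 and 14.9 CPM untreated (-0.57 ± 0.07, adjusted p = 0.000311, edgeR). In both, the IFN-γ libraries agreed closely and lay under all untreated ones.

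Btbd7 and Btbd9 were higher. Btbd7, which is needed for branching of the mouse salivary gland, had 31.2, 29.3 and 28.7 CPM with IFN-γ and 26.1, 18.4 and 22.5 CPM untreated (log2 fold change 0.41 ± 0.12, adjusted p = 0.0262, edgeR). Btbd9, linked in humans to restless legs syndrome, had 33.3, 30.5 and 29.2 CPM with IFN-γ and 27.4, 23.6 and 25.2 CPM untreated (0.29 ± 0.08, adjusted p = 0.024, edgeR). The call of Btbd7 was lost without any 1 of the 3 IFN-γ libraries or untreated replicate 3 (0.36 to 0.44), and that of Btbd9 without IFN-γ replicate 1 or 2 or untreated replicate 3 (0.22 to 0.30).

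Btbd1 and Btbd2 encode relatives that bind topoisomerase I. Btbd1, the second most abundant gene by mean TPM, averaged 90.6 ± 6.24 CPM with IFN-γ and 91.1 ± 1.98 CPM untreated and was not called (log2 fold change -0.01 ± 0.06, adjusted p = 0.941, edgeR). Btbd2, whose promoter window is printed above, averaged 8.001 ± 0.907 CPM with IFN-γ and 9.93 ± 0.637 CPM untreated (-0.31 ± 0.10, adjusted p = 0.0436, edgeR). Exons of Gm51810 on the other strand cover 27.9% of its exon bases, with a mean of 6.33 counts against 279.8 for Btbd2. The Btbd2 call was lost without IFN-γ replicate 1 or 3 or without any untreated library, at values between -0.35 and -0.25. Top1 was not called.

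The other 10 genes called lower, Klhl6, Klhl9 and Btbd2 among them, had log2 fold changes between -0.47 and -0.18. The rest were Btbd6, known from zebrafish neurogenesis; Klhl42, an adaptor for the microtubule-severing enzyme katanin; Klhl17, an actin-binding protein of neurons; Btbd8; Klhl11; Klhl36; and Klhl12, which acts on the COPII coat protein SEC31. Of the 10, 6 lost their call without 1 library, Klhl9 and Btbd2 as given above. Btbd8 lost it without IFN-γ replicate 2 or 3 or untreated replicate 3 (-0.39 to -0.36), and Klhl11 without IFN-γ replicate 1 or 2 (-0.33 to -0.28). Klhl36 lost it without any library but untreated replicate 2 (-0.335 to -0.24), and Klhl12 without IFN-γ replicate 2 (-0.26). Sec31a was not called. The 28 genes that did not pass the test had log2 fold changes between -0.33 and 0.22.

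**Figure D5:**
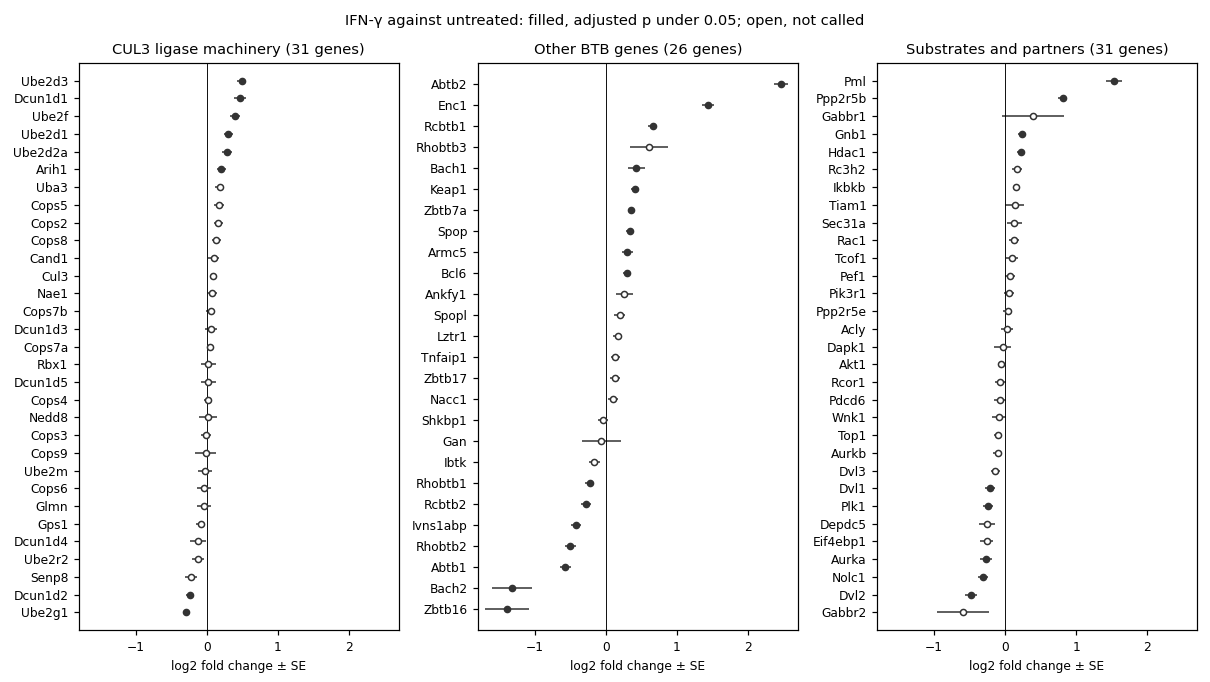
Log2 fold change, IFN-γ over untreated, with its standard error from edgeR's fit, for the tested genes of 3 lists: CUL3 ligase machinery, other BTB genes, and substrates and partners, of which 31 of 33 are drawn; filled points passed an adjusted p of 0.05. The machinery lies between -0.29 and 0.49, while Abtb2 among the other BTB genes reaches 2.47.

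The list of ligase machinery held 31 tested genes, for the scaffold, its RING protein, the NEDD8 pathway, the COP9 signalosome and ubiquitin-conjugating enzymes. It was not limited to genes that act with CUL3 alone. With IFN-γ, 6 were higher (19.4%, against 19.6% of all genes tested) and 2 lower (6.45%, against 16.8%), and none of the 31 was called at 2-fold. The median log2 fold change was 0.05, which turned to -0.12 with total counts and -0.10 with the upper quartile. Cul3 averaged 139.2 ± 2.48 CPM with IFN-γ and 130.5 ± 4.74 CPM untreated (0.09 ± 0.05, adjusted p = 0.219, edgeR), and Rbx1 130.1 ± 7.69 CPM with IFN-γ and 128.2 ± 19.7 CPM untreated (0.02 ± 0.11, adjusted p = 0.897, edgeR). Neither was called under any scaling, and both values turned negative with total counts and the upper quartile. Ube2d3, a ubiquitin-conjugating enzyme gene, was higher at 602.5 ± 22.6 CPM with IFN-γ and 428.4 ± 22.3 CPM untreated (0.49 ± 0.06, adjusted p = 0.000535, edgeR). Dcun1d1, which helps attach NEDD8 to cullins, was higher by 0.47 ± 0.08, while its relative Dcun1d2 was lower, at -0.24 ± 0.06, and so was Ube2g1, at -0.29 ± 0.05 (adjusted p = 0.00244, 0.0142 and 0.00319, edgeR). The Dcun1d2 call was lost without IFN-γ replicate 2 (-0.25) or 3 (-0.24). With total counts or the upper quartile, 3 machinery genes were higher and 5 lower. Of all 12968 genes, these 2 scalings called 1666 and 1803 higher and 4520 and 4097 lower.

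A list of BTB genes with other names, which is not the full set, held 26 tested genes. Of these, 9 were higher (34.6%, against 19.6% of all genes tested) and 7 lower (26.9%, against 16.8%). The list was chosen with earlier results of these data known, so these shares only describe it. Their median log2 fold change was 0.15, which moved to -0.02 with total counts and 0.001 with the upper quartile. Abtb2 was higher at 23.3 ± 1.39 CPM with IFN-γ and 4.21 ± 0.399 CPM untreated (2.47 ± 0.09, adjusted p = 3.68e-07, edgeR). Enc1, a Kelch-repeat gene of neurons and other tissues, was at 66.5 ± 4.38 CPM with IFN-γ and 24.6 ± 2.44 CPM untreated (1.44 ± 0.09, adjusted p = 6.31e-06, edgeR). Keap1, the Kelch adaptor that turns over the stress regulator NRF2, was at 76.0 ± 1.53 CPM with IFN-γ and 57.4 ± 2.08 CPM untreated (0.41 ± 0.05, adjusted p = 0.000652, edgeR). Both increases were larger than that of Klhl25, the only Klhl gene called higher; the difference was not tested. Among the lower ones were the transcription factor gene Bach2, at 0.697 ± 0.237 CPM with IFN-γ and 1.75 ± 0.437 CPM untreated (-1.32 ± 0.29, adjusted p = 0.00794, edgeR), and Abtb1, at 9.72 ± 0.548 CPM with IFN-γ and 14.4 ± 0.592 CPM untreated (-0.57 ± 0.08, adjusted p = 0.000638, edgeR).

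Of 33 tested substrates and partners of the adaptors, 4 were higher (12.1%, against 19.6% of all genes tested) and 6 lower (18.2%, against 16.8%), with a median log2 fold change of -0.04 (-0.21 with total counts and -0.18 with the upper quartile). Pml, a nuclear body gene whose product KLHL20 turns over in human cells, had the largest increase. It was at 77.0 ± 9.04 CPM with IFN-γ and 26.6 ± 2.84 CPM untreated (1.53 ± 0.11, adjusted p = 1.41e-05, edgeR), while Klhl20 was not called (0.15 ± 0.10, adjusted p = 0.301, edgeR). Dvl2, which encodes a Wnt signalling protein targeted by KLHL12, had a log2 fold change of -0.475 ± 0.08 (adjusted p = 0.00283, edgeR). Klhl12 was called lower too, at -0.28 ± 0.07, so this pair moved in the same direction. With total counts, 2 of the 33 were higher and 14 lower, against 1666 and 4520 of all 12968 genes. Without untreated replicate 3, 2 were higher and 3 lower, against 2045 and 1669 of all genes tested. Without IFN-γ replicate 2 or 3, 2 were lower, against 1451 and 1491 of all genes tested. With all 6 libraries, 2539 of all genes were higher and 2176 lower.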

How the data were processed

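Treatment labels gave the groups: 3 libraries of mouse bone marrow-derived macrophages with IFN-γ and 3 untreated. Per the labels' protocols, Trizol was used for RNA and the KAPA stranded mRNA kit for libraries. Reads were aligned with HISAT2 to mm10, per the submitters' processing notes. The sources used here do not say how reads were counted, or whether by strand. Each deposited table holds a count, TPM and FPKM per gene with exon coordinates, per the file headers. The deposited counts are raw whole numbers and were tested. The TPM and FPKM deposited by the authors are scaled to exon length and library total; TPM served for levels between genes, and FPKM was set aside. Of the 81 genes of these families in RefSeq GRCm38.p6, 2 had the start and end given in the tables.

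Genes with low counts were dropped by filterByExpr (10 as minimum count, 15 as minimum total). TMM scaling was followed by glmQLFit and a two-sided glmQLFTest in edgeR 4.0.16 (limma 3.58.1, R 4.3.3), and p-values were adjusted by Benjamini-Hochberg over all 12968 genes, with 0.05 as threshold. Standard errors are the size of the log2 fold change over the root of the F statistic. The biological coefficient of variation was 0.0893 in common, and the scripts were tested on simulated data. Replicates of a group all differed beyond sampling noise, at chi-square values per degree of freedom between 1.97 and 74.4.

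Named genes were the called members with the largest change, up to 12 in each direction, at a mean of at least 1 CPM, the 6 with the highest mean TPM, members at the edge of the count rule, Cul3, Rbx1, Keap1 and Tnfaip1, and in each list the 2 called genes with the largest change in each direction at 1 CPM or more. Other genes were named after their values were seen, mostly for their tie to one of these. Members and lists were chosen with earlier results of these data known. Shared sequence was counted as 50-base stretches of GENCODE M21 transcripts, for 55 of the 56 genes. Promoters came from RefSeq. Of 2 motifs searched in them, 1 is not reported here, so the motif shown is not the full search, and neither are some genes that the rule names. The alternatives were scaling by RLE, upper quartile or total counts; no filter or one of 5 CPM in 3 libraries; DESeq2 1.42.0; limma-voom; the replicate number as a block; and leaving out each library. Correcting each library for its length trend, taken against the mean of all 6 libraries (lowess, span 0.5), was added after seeing the data. Python 3.11.15, numpy 2.4.6, pandas 2.3.3, scipy 1.17.1 and matplotlib 3.10.9 made the tables and figures.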

Additional observations from a re-analysis of the deposited data

How the results depend on the processing

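Of the 28 called genes of these families, 18 kept their call under every alternative that tested them, and 0 changed sign. DESeq2 called 24 of the 28, RLE scaling and limma-voom 28, no filter 25, the filter of 5 CPM in 3 libraries 21 (it removed 7 low genes before testing), and length-trend removal 28 with 4 gained. Leaving out 1 library kept between 21 and 27 of the 28 called, and 9 of the 28 lost their call without at least 1 library. Without untreated replicate 2, 1 further gene was called, and so was 1 without untreated replicate 3. Total counts gave 1666 genes higher and 4520 lower over all genes, and the upper quartile 4097 lower. Members called higher numbered 3 under each of these 2 scalings, against 6. CUL3 machinery genes called higher numbered 10 with the length trend removed and 3 under each scaling, and those called lower 5 under each scaling. Over all genes, 3352 were higher with the length trend removed, against 2539 in the main fit. Substrates called higher numbered 2 under each scaling, and those called lower 3 with DESeq2, 3 with no filter, 14 with total counts and 13 with the upper quartile. Without 1 library, CUL3 machinery genes called lower ranged from 1 to 2, substrates higher from 2 to 6, and substrates lower from 2 to 7. The low ends were reached without IFN-γ replicate 2 or 3 for the lower genes and without untreated replicate 3 for the higher ones. Over all genes, leaving out 1 library gave between 1991 and 3174 higher and between 1451 and 2793 lower. The causes were not tested.

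Values near 0 changed sign, none of them called in the main fit or where the sign changed. Among these genes, Btbd1 was called lower with total counts, at -0.178, and Tnfaip1 higher with the length trend removed. With total counts and the upper quartile, the log2 fold changes were -0.066 and -0.045 for Kctd5, -0.078 and -0.054 for Cul3, -0.145 and -0.127 for Rbx1, and -0.038 and -0.014 for Tnfaip1. Rbx1 was at -0.006 with the 5 CPM filter. Over left-out libraries, Btbd1 ranged from -0.047 to 0.033 and Rbx1 from -0.057 to 0.154.

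The replicate numbers were not treated as pairs. Deviations of same-numbered libraries correlated at 0.306, 0.144 and -0.070. Those of other-numbered libraries correlated between -0.340 and 0.241, so only replicate 1 lay above that range. With the replicate number as a block, 29 members were called, 27 of them shared with the fit without it, where Klhl36 lost its call. The block gave 7 members higher and 22 lower, and 2723 genes higher and 2327 lower over all genes. The Kctd14 call rested on 32, 24 and 30 counts with IFN-γ and 8, 10 and 10 untreated.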

Other observations

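Each library's deviation in log2 CPM from its group mean was fitted against exon length. The slopes per doubling of length were 0.0402, -0.0157 and -0.0244 in IFN-γ replicates 1, 2 and 3. They were 0.0668, -0.0927 and 0.0259 in untreated replicates 1, 2 and 3. Untreated replicate 2 had the steepest slope. Taken within groups, these slopes cannot show a difference between IFN-γ and untreated. The length-trend removal instead used deviations from the mean of all 6 libraries, so it also took out any length trend between the groups. With that removal, Kctd20 was called higher, at 0.189, against 0.18 without it. Of the 56 genes, 9 were then higher and 23 lower, and of all 12968 genes 3352 were higher and 2616 lower. Without the removal, 2539 of all genes were higher and 2176 lower.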
